A study of Mus musculus with 6 samples.

Results

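The 54 genes described here encode proteins of G2 and mitosis: the cyclin and kinase switch for mitotic entry, the mitotic kinases, the spindle checkpoint, kinetochores, spindle motors, the cytokinesis machinery and the condensins. The list was given by symbol. Each gene was located in the GENCODE annotation of the mm10 mouse genome and matched by position to the transcripts assembled in each library. All 54 were located, and all 54 were among the 12045 genes tested, which were the protein-coding and long non-coding genes whose level averaged at least 1 FPKM. FPKM is the density of sequenced fragments along a transcript after scaling for library size. The level of a gene is here the FPKM averaged over its own exonic bases.

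The libraries are RNA-seq of spinal cord oligodendrocyte precursor cells (OPCs) of Gde3 KO mice (3 libraries) and of WT mice (3 libraries), all C57BL/6 and taken at postnatal day 0.5. Gde3, annotated as Gdpd2, encodes a membrane glycerophosphodiester phosphodiesterase that cuts GPI anchors. Cells of both genotypes were selected with magnetic beads against A2B5, a ganglioside epitope of glial precursors, and were kept for 16 h with PDGF and CNTF, each at 10 ng/mL, and with forskolin at 5 µM. PDGF is the main mitogen of OPCs, so cells of both genotypes were grown under a proliferative stimulus. The labels name the KO without its allele. The labels do not say whether the replicates came from separate animals, litters or cultures, so p-values refer to the spread among these 6 libraries only, and that spread may be technical.

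The replicate number divided the libraries more than the genotype did. The first principal component held 36.8% of the variance over all genes tested and put the replicate 1 library of each genotype on one side and the other 4 on the other. Identifiers in the labels share a middle number of 3 for both replicate 1 libraries and of 4 for the others, and what that number stands for is not stated. WT replicate 1 also had shorter transcripts, with 36.8% of them under 300 nt, against 2.16% to 6.61% in the other 5 libraries, and the lowest relative depth, 0.759 of the deepest library. Gdpd2 was at 0.667, 1.5 and 1.78 FPKM in KO replicates 1, 2 and 3, and at 0, 2.79 and 2.85 FPKM in WT replicates 1, 2 and 3, so its level did not separate the genotypes. Its exon 9 (chrX:100734170-100734252) was assembled over 0% of its bases in all 3 KO libraries and over 100% in all 3 WT libraries, in WT replicate 1 by transcripts under 300 nt, which do not enter the levels. All 13 OPC markers were detected in all libraries, with a summed level of 1160 to 1652 FPKM.

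Cells make the proteins of mitosis in a wave late in the cell cycle. Cyclin B with CDK1 drives entry, PLK1 and the Aurora kinases build the spindle, the checkpoint holds the anaphase-promoting complex (APC/C) until every kinetochore is attached, and the APC/C with CDC20 then starts anaphase. Many of these genes are held off in resting and G1 cells by the DREAM complex at a promoter element, the cell cycle genes homology region (CHR), and are switched on in G2 by B-MYB, FOXM1 and the CCAAT-binding factor NF-Y. OPCs of newborn spinal cord divide, so these genes are a usual readout of how many of them are cycling.

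Most members with a promoter in the sequence table share this design, which the choice of genes did not use. Promoters of 250 bases before to 50 bases after the start were found for 44 of the 54 members in the RefSeq table (GRCm38.p6). TTTGAA or TTCGAA, the core letters of the CHR, stood on either strand in 35 of these 44 members (79.5%), against 21.7% of all 27025 genes in the table and 19.2% of its 32851 promoters. CCAAT stood on either strand in 35 members (79.5%), against 41.1% of all genes and 37.4% of all promoters. Both were present in 31 members (70.5%), against 8.61% of all genes and 7.52% of all promoters. TTCGAA reads the same on both strands, and the motifs were searched separately, so that a base could belong to both. A match is a stretch of letters and not evidence of binding. Promoters of 4 members are shown because these genes mark the ends of the range of the results: Mki67 and Cenpe had the lowest levels in replicate 1 relative to the others, Cdc20 was the lowest of the checkpoint genes, and Birc5 was the 1 member that was higher. Capitals mark TTTGAA and CCAAT on either strand, the second reading ATTGG where it lies on the other strand.
Mki67: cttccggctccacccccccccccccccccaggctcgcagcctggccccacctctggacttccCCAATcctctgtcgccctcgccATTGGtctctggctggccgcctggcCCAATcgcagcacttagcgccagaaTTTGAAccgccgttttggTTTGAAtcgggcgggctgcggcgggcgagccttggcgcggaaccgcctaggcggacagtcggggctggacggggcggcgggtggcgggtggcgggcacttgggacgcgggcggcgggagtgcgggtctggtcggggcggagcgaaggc
Cenpe: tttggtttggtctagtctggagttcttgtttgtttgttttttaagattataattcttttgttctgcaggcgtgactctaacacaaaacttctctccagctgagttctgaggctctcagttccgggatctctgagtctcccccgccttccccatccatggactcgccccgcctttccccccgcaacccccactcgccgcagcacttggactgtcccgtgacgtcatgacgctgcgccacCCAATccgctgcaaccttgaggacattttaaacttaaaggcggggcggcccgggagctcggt
Cdc20: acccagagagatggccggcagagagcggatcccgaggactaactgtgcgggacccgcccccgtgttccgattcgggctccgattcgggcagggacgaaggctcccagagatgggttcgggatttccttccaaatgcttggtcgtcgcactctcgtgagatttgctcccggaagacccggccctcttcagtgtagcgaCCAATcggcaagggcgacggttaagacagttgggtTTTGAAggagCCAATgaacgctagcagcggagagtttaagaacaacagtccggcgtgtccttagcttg
Birc5: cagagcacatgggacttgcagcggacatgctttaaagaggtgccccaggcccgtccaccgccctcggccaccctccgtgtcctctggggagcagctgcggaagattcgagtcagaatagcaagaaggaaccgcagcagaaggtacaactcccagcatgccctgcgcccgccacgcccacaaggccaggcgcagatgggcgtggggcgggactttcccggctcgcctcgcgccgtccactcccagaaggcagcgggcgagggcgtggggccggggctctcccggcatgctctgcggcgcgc
The Mki67 promoter lies at chr7:135716330-135716629 on the minus strand, that of Cenpe at chr3:135212313-135212612 on the plus strand, that of Cdc20 at chr4:118437294-118437593 on the minus strand and that of Birc5 at chr11:117848987-117849286 on the plus strand. The Mki67 and Cdc20 promoters held both motifs, that of Cenpe held CCAAT but no CHR core, and that of Birc5 held neither within these bases. The 35 members with a CHR core had a median log2 difference between replicate 1 and the others of -1.11, with values between -2.33 and -0.65. The 9 members with a promoter but no core had a median of -0.75, with values between -1.95 and 0.49. These 2 groups of members overlapped and were not tested against each other.

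Both replicate 1 libraries held less RNA of nearly every member. The median member was at 14.3 FPKM in KO replicate 1 and at 26.2 and 30.6 FPKM in KO replicates 2 and 3. It was at 12.8 FPKM in WT replicate 1 and at 28.1 and 30.5 FPKM in WT replicates 2 and 3. The summed level of the 54 genes was 956, 1795 and 2100 FPKM in KO replicates 1, 2 and 3, and 867, 1914 and 2043 FPKM in WT replicates 1, 2 and 3. Replicate 1 was thus the lowest library of both genotypes by a wide margin. In bulk libraries, fewer dividing cells and less of this RNA in each cell cannot be told apart.

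**Figure D1:**
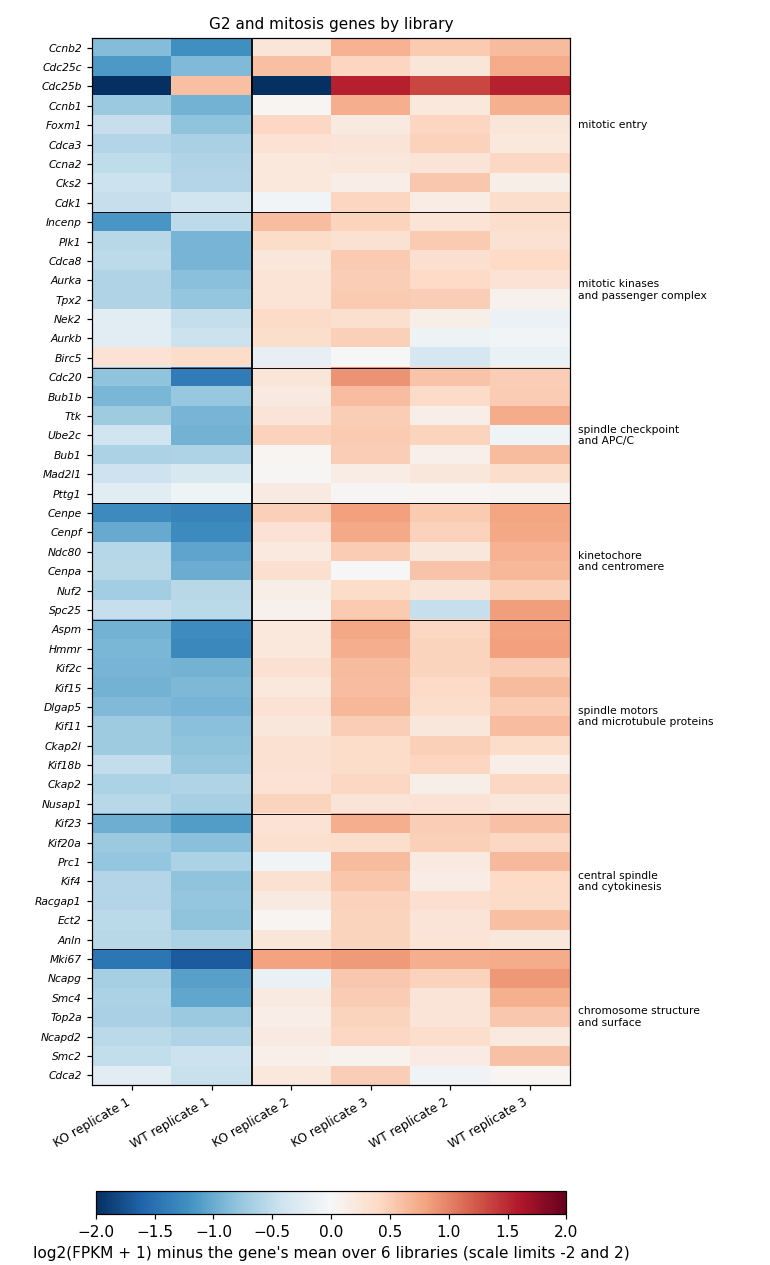
Level of the 54 members in each library, as log2(FPKM + 1) minus the mean of the gene over the 6 libraries, with members grouped by role (rows) and libraries in columns; blue is below and red above the gene's mean. Both replicate 1 columns are below the mean for nearly every member, while Birc5 goes the other way and Cdc25b is listed at 0 in KO replicates 1 and 2.

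Relative to replicates 2 and 3, 53 of the 54 members were lower in replicate 1 and 1 (Birc5) was higher, though not over assembled bases only. The median log2 difference of FPKM + 1 was -1.07, with the quartiles at -1.30 and -0.92, while the median over all genes tested was 0.01. The mean level in replicate 1 was a median of 0.460 of the mean in the other 4 libraries, and 35 members were below 0.5, which 5.87% of all genes tested were. In 51 members both replicate 1 libraries were below all 4 others, against 21.3% of all genes tested, and the exceptions were Cdc25b, Spc25 and Birc5. With limma and the genotype as a covariate, 30 members passed an adjusted p of 0.05, all of them lower in replicate 1, against 1.72% of all genes tested that passed in that direction. The adjusted p-values given for members are those of this fit, adjusted over all 12045 genes. An unadjusted p under 0.05 was reached by 51 members and by 24.2% of all genes tested.

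The size of the difference was steadier than the calls. Adjusted p-values of most members lay close to the threshold, with a median of 0.0442 and 48 of 54 under 0.1. Leaving out any 1 of the 6 libraries reduced the members called to 1, which was Mki67, except that without KO replicate 2 there were 3, namely Cdc20, Kif23 and Mki67. The median log2 difference stayed between -1.15 and -0.94 over these 6 fits, with 53 members lower in each. Within KO alone the median was -0.94 and within WT alone -1.15, and 52 members were lower in replicate 1 than in both other libraries of the same genotype, in each genotype. With FPKM summed over the transcripts of a gene, in which every piece of a fragmented gene adds to the total, no member was called, 42 were lower and the median was -0.72, beside a median of 0.54 over all genes. Across the 54 members the KO and WT differences had a Pearson r of 0.741 and a Spearman rho of 0.668, as a description of members that share their libraries.

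**Figure D2:**
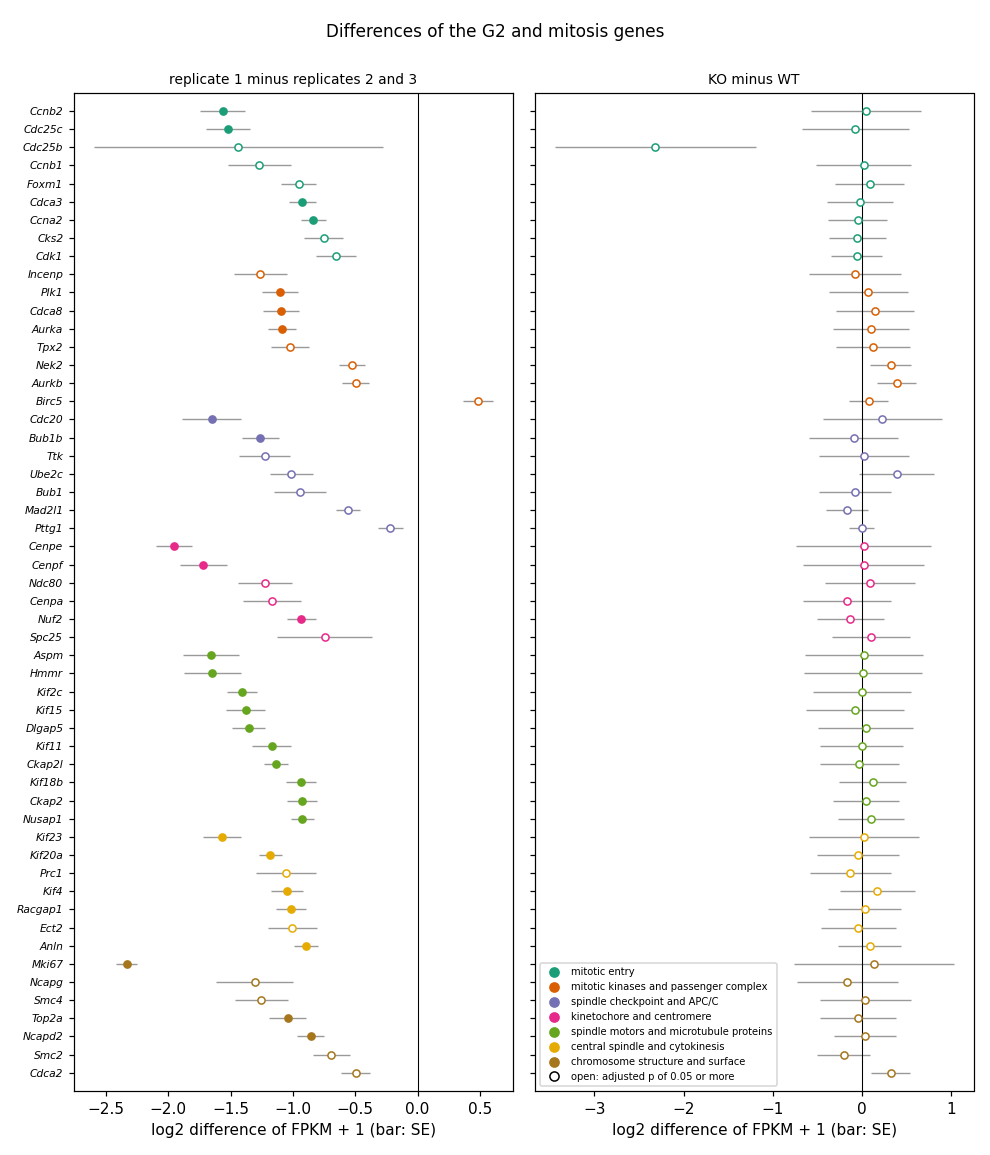
Log2 difference of FPKM + 1 for each member with its SE, for replicate 1 minus replicates 2 and 3 (left) and for KO minus WT (right), with filled points for an adjusted p under 0.05 (limma, over 12045 genes). On the left 53 of 54 points lie below 0 and 30 are filled, and on the right the points lie around 0 with a median of 0.02 and none is filled.

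Other features of the replicate 1 libraries moved with this difference, and their part in it was not tested. The summed level of 9 astrocyte markers was 224 to 286 FPKM in replicate 1 and 489 to 767 FPKM in the others, with 7 of the 9 lower and 2 called lower (Aldoc and Slc1a2). The 11 neuron and neuroblast markers summed to 302 to 446 FPKM in replicate 1 and 235 to 306 FPKM in the others, with 7 of 11 higher and none called. Of the erythroid markers, the globin gene Hbb-bs was at 102, 50.5 and 28.3 FPKM in KO replicates 1, 2 and 3, against 165, 37.5 and 21.5 FPKM in WT replicates 1, 2 and 3, and Hba-a1 and Hbb-bt were at 0 in all libraries. Hbb-bs was thus highest in both replicate 1 libraries, and it was not called. The 11 vascular and fibroblast markers summed to 71.1 to 74.1 FPKM in replicate 1 and 64.5 to 139 FPKM in the others, with 1 of the 10 tested called higher (Cdh5). OPC markers summed to 1532 to 1652 FPKM in replicate 1 and 1160 to 1570 FPKM in the others, with WT replicate 2 above KO replicate 1. Of these 13 markers 9 were higher in replicate 1 and 4 lower, with a median log2 difference of 0.12 and none called. Lower levels of the mitotic genes thus stood beside a summed OPC marker level near the upper end of its range. The 15 microglia and macrophage markers summed to 203 to 282 FPKM in replicate 1 and 233 to 449 FPKM in the others, with 1 called lower (Trem2).

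The 9 genes of mitotic entry, which switch cells into mitosis, had a median log2 difference of -0.95 between replicate 1 and the others, 8 of them were below all other libraries in both replicate 1 libraries, and 4 were called lower. Ccnb2, a B-type cyclin that activates CDK1, was at 9.47, 21.5 and 29.7 FPKM in KO replicates 1, 2 and 3, against 7.16, 26.3 and 28.5 FPKM in WT replicates 1, 2 and 3. Replicate 1 was the lowest library of each genotype, at 0.314 of the mean of the others, and the log2 difference was -1.56 (SE 0.18, adjusted p = 0.041). Ccnb1, the main partner of CDK1 at mitotic entry, was at 25.4, 44.6 and 72.5 FPKM in KO replicates 1, 2 and 3, against 21.9, 50.1 and 71.2 FPKM in WT replicates 1, 2 and 3. Its levels were ordered replicate 1, 2 and 3 from low to high in both genotypes, so its spread was not between replicate 1 and the others alone, and with a log2 difference of -1.27 (SE 0.25, adjusted p = 0.0757) it was not called. Cdk1, the kinase itself, had the smallest difference of the group when averaged over all exonic bases, at 21.7, 29.3 and 41 FPKM in KO replicates 1, 2 and 3, against 22.6, 33.5 and 38.9 FPKM in WT replicates 1, 2 and 3. Both replicate 1 libraries were again the lowest, but the ratio was 0.621 and the difference of -0.65 (SE 0.16, adjusted p = 0.107) was not called. Over assembled bases only, its difference was -1.86, the largest of the group, but these bases were not the same in all libraries. Of 5 equal parts of its exonic bases, the last was assembled in replicate 1 only, at 2.07 (KO) and 2.13 (WT) FPKM. Such low bases enter the average of replicate 1 alone. The first part was assembled over 89.8% in every library. It stood at 86.4 (KO) and 77.0 (WT) FPKM in replicate 1, below the 119 to 156 FPKM of the other libraries. Ranks within a role are given for the average over all exonic bases.

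Ccna2, a cyclin of S and G2 phase (log2 difference -0.83, SE 0.10, adjusted p = 0.0411), Cdca3, a trigger of WEE1 degradation (log2 difference -0.92, SE 0.11, adjusted p = 0.041), and Cdc25c, a phosphatase that removes the inhibitory phosphates of CDK1 (log2 difference -1.52, SE 0.18, adjusted p = 0.0411), were called lower. Foxm1, the transcription factor that drives many of these genes, missed the threshold narrowly, with a log2 difference of -0.95 (SE 0.14, adjusted p = 0.0502), and Cks2, a small subunit of CDK complexes, had a log2 difference of -0.75 (SE 0.16, adjusted p = 0.0813). Cdc25b, the phosphatase that starts CDK1 activation, stood apart because it was listed at 0 in KO replicates 1 and 2, which means that nothing was assembled there and not that RNA was absent. It was at 15.9 FPKM in KO replicate 3 and at 7.69, 13.5 and 15.6 FPKM in WT replicates 1, 2 and 3. Where it was assembled it was a transcript of up to 15 exons, and the library WT replicate 1 again had the lowest of the 4 values.

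The 8 genes of the mitotic kinases and the chromosomal passenger complex had a median of -1.05, 7 of them were below all other libraries in both replicate 1 libraries, and 3 were called lower. The called genes were Plk1, the polo-like kinase of spindle assembly (log2 difference -1.11, SE 0.14, adjusted p = 0.0415), Cdca8, which encodes the passenger subunit borealin (log2 difference -1.10, SE 0.15, adjusted p = 0.0425), and Aurka, the spindle-pole Aurora kinase (log2 difference -1.09, SE 0.11, adjusted p = 0.0357). Tpx2, the activator of Aurora A on microtubules, missed the threshold narrowly with a log2 difference of -1.02 (SE 0.15, adjusted p = 0.0514).

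The subunits of the passenger complex had unequal differences. Incenp, its scaffold, was at 15.7, 56.2 and 49.7 FPKM in KO replicates 1, 2 and 3, against 25.1, 44.2 and 46.5 FPKM in WT replicates 1, 2 and 3. KO replicate 1 was the lowest library and WT replicate 1 the next, the ratio to the others was 0.415, and the difference of -1.26 (SE 0.22, adjusted p = 0.0604) was not called. Aurkb, the kinase of the complex, was at 29.4, 44.6 and 48.9 FPKM in KO replicates 1, 2 and 3, against 25.6, 32.3 and 33.3 FPKM in WT replicates 1, 2 and 3. It was lower in both replicate 1 libraries, but by less, with a ratio of 0.692 and a difference of -0.50 (SE 0.11, adjusted p = 0.0912). Birc5, which encodes survivin, the targeting subunit, was at 15.9, 11.3 and 12.8 FPKM in KO replicates 1, 2 and 3, against 16.7, 9.9 and 11.6 FPKM in WT replicates 1, 2 and 3. Both replicate 1 libraries were above the other 4, a position that 18.7% of all genes tested had, and the difference of 0.49 (SE 0.12, adjusted p = 0.104) was not called.

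That higher value of Birc5 depended on which bases were averaged. Transcripts covered 26.0% and 27.0% of its exonic bases in KO and WT replicate 1, and 16.7% in each of the other 4 libraries. The longest Birc5 transcript, of 4 exons, was at 61.2, 67.5 and 61.9 FPKM in KO replicates 1, 2 and 3, and at 61.9, 59.2 and 69.5 FPKM in WT replicates 1, 2 and 3, with no order between replicate 1 and the others. Over assembled bases only, the log2 difference was -0.14. Nek2, a centrosome kinase, was at 6.51, 10.4 and 9.94 FPKM in KO replicates 1, 2 and 3, against 5.25, 8.48 and 7.01 FPKM in WT replicates 1, 2 and 3. It was lower in both replicate 1 libraries at 0.656 of the others, a difference of -0.53 (SE 0.11, adjusted p = 0.0791) that was not called.

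**Figure D3:**
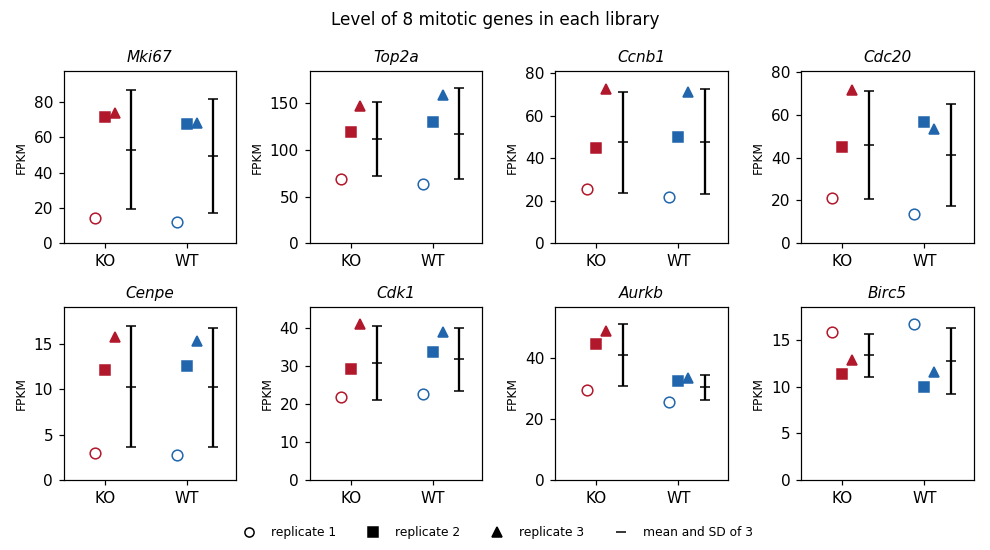
FPKM of 8 members in each library, with KO left of WT in each panel, open circles for replicate 1, squares and triangles for replicates 2 and 3, and the mean with SD of the 3 libraries at the right of each genotype. In 7 of the 8 genes the open circle is the lowest point of both genotypes, as for Mki67 at 14.2 FPKM in KO and 12.1 FPKM in WT, and in Birc5 it is the highest.

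The 7 genes of the spindle checkpoint and the APC/C had a median of -1.01, all 7 had both replicate 1 libraries below the other 4, and 2 were called. Cdc20, which activates the APC/C at anaphase, was at 21.3, 44.8 and 71.6 FPKM in KO replicates 1, 2 and 3, against 13.6, 56.4 and 53.4 FPKM in WT replicates 1, 2 and 3. Replicate 1 held 0.309 of the mean of the others, and the difference was -1.65 (SE 0.24, adjusted p = 0.0491). Bub1b, the checkpoint protein BUBR1 that holds CDC20 back, was also called lower with a log2 difference of -1.26 (SE 0.15, adjusted p = 0.0411). Pttg1, which encodes securin, the inhibitor of separase, had the smallest difference of all 54 members in the average over all exonic bases, at 4.79, 6.52 and 5.82 FPKM in KO replicates 1, 2 and 3, against 5.28, 5.83 and 5.94 FPKM in WT replicates 1, 2 and 3. Its replicate 1 libraries were the lowest of both genotypes, by a margin small beside that of the other genes, with a ratio of 0.836 and a difference of -0.22 (SE 0.10, adjusted p = 0.26). Over assembled bases only, Mad2l1 and Birc5 had smaller differences than Pttg1, whose value there was -0.21.

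Pttg1 was assembled over only 33.0% to 40.7% of its exonic bases. Its longest transcript was at 7.33, 13.7 and 15.9 FPKM in KO replicates 1, 2 and 3 and at 5.73, 9.9 and 11 FPKM in WT replicates 1, 2 and 3. These values are not comparable, because the gene was in 1 transcript in KO replicate 3 and in up to 4 in the others. Summed over its transcripts, it was at 13.7, 18 and 15.9 FPKM in KO replicates 1, 2 and 3. The sums in WT replicates 1, 2 and 3 were 15.2, 18.5 and 15.9 FPKM. Ube2c, the ubiquitin-conjugating enzyme that works with the APC/C, was at 43.8, 81 and 84.3 FPKM in KO replicates 1, 2 and 3, against 29.7, 79.4 and 55 FPKM in WT replicates 1, 2 and 3. Its ratio was 0.491 with a log2 difference of -1.01 (SE 0.17, adjusted p = 0.0604), and WT replicate 3 lay between WT replicate 1 and the other high libraries. Mad2l1, the checkpoint protein MAD2, was at 6.51, 9.16 and 10.1 FPKM in KO replicates 1, 2 and 3, against 6.98, 10.7 and 11.8 FPKM in WT replicates 1, 2 and 3. It was lower in both replicate 1 libraries at 0.647 of the others, with a log2 difference of -0.56 (SE 0.10, adjusted p = 0.0613), but over assembled bases only the difference was 0.0803. The first of 5 equal parts of its exonic bases went the other way, at 24.4, 18.4 and 8.82 FPKM in KO replicates 1, 2 and 3. In WT replicates 1, 2 and 3 that part was at 26.6, 14 and 10.4 FPKM. Its other parts were lowest in replicate 1 of each genotype. Ttk, the checkpoint kinase MPS1, and Bub1, its kinetochore partner kinase, had ratios of 0.389 and 0.484 and were not called, with adjusted p-values of 0.0602 and 0.0923.

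Genes of the kinetochore and centromere had the second lowest median of the 7 roles, at -1.19, with 5 of 6 members below all other libraries in both replicate 1 libraries and 3 called. Cenpe, a kinesin motor that brings chromosomes to the metaphase plate, was at 2.93, 12.1 and 15.8 FPKM in KO replicates 1, 2 and 3, against 2.74, 12.5 and 15.3 FPKM in WT replicates 1, 2 and 3. Replicate 1 held 0.204 of the mean of the others, nearly the same share in KO (0.210) as in WT (0.197), and the difference was -1.95 (SE 0.15, adjusted p = 0.0302). Cenpf, a large coiled-coil kinetochore protein that accumulates in G2, followed with a ratio of 0.263 and a log2 difference of -1.72 (SE 0.19, adjusted p = 0.0399). Nuf2, a subunit of the microtubule-binding NDC80 complex, was called with a log2 difference of -0.93 (SE 0.12, adjusted p = 0.0411).

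Its partner subunits Ndc80 and Spc25 were not called. Ndc80 had a ratio of 0.403 with a log2 difference of -1.22 (SE 0.22, adjusted p = 0.0646). Spc25 was at 15.2, 22.6 and 31 FPKM in KO replicates 1, 2 and 3, against 14.3, 15.2 and 38.6 FPKM in WT replicates 1, 2 and 3. WT replicate 2 was close to WT replicate 1 and less than 0.5 of WT replicate 3, so that the replicate numbers did not divide this gene cleanly, and the difference was -0.75 (SE 0.38, adjusted p = 0.302). Cenpa, the histone H3 variant that marks centromeres, had a ratio of 0.585 in KO and 0.301 in WT and was not called, with a log2 difference of -1.17 (SE 0.24, adjusted p = 0.0769).

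Spindle motors and microtubule proteins had the lowest median of the 7 roles, -1.26, and all 10 of these members were called lower and lay below all other libraries in both replicate 1 libraries. Aspm, a spindle-pole protein known as a microcephaly gene, was at 3.65, 9.44 and 14.4 FPKM in KO replicates 1, 2 and 3, against 2.76, 11 and 14.7 FPKM in WT replicates 1, 2 and 3. Replicate 1 held 0.259 of the others, with a log2 difference of -1.66 (SE 0.23, adjusted p = 0.044). In WT replicate 1 Aspm was in 12 pieces over 66.2% of its bases. With transcripts under 300 nt kept, its level there was 8.92 FPKM, still below WT replicates 2 and 3 but by a smaller margin. Hmmr, a microtubule-binding protein of the spindle pole, had a ratio of 0.287 and a log2 difference of -1.65 (SE 0.23, adjusted p = 0.0444). Nusap1, a nucleolar and spindle-associated protein, had the smallest difference of the group and was at 18.6, 38.6 and 33.7 FPKM in KO replicates 1, 2 and 3, against 17.2, 34.4 and 32.8 FPKM in WT replicates 1, 2 and 3. Both replicate 1 libraries were below the other 4, at 0.513 of their mean, and the difference was -0.92 (SE 0.09, adjusted p = 0.0361).

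Among the kinesins, Kif2c, which takes microtubules apart at centromeres, had a ratio of 0.352 and a log2 difference of -1.41 (SE 0.12, adjusted p = 0.0329). Kif15, a motor that helps keep the spindle bipolar, had a ratio of 0.343 and an adjusted p of 0.0406. Kif11, the main motor that pushes the spindle poles apart, had a ratio of 0.429 and an adjusted p of 0.0432. Kif18b, which shortens astral microtubules, had a ratio of 0.506 and an adjusted p of 0.0425. Dlgap5, a spindle assembly factor that stabilises kinetochore fibres, was at 0.344 of the others with a log2 difference of -1.36 (SE 0.14, adjusted p = 0.0357). Ckap2l and Ckap2, a pair of related spindle proteins, were at 0.443 and 0.507, with adjusted p-values of 0.0326 and 0.0415.

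The 7 genes of the central spindle and cytokinesis had a median of -1.05, all 7 had both replicate 1 libraries below the other 4, and 5 were called. Kif23, the motor of the centralspindlin complex, was at 5.43, 14.4 and 20.0 FPKM in KO replicates 1, 2 and 3, against 4.86, 16.8 and 17.9 FPKM in WT replicates 1, 2 and 3. Replicate 1 held 0.298 of the others, with a log2 difference of -1.57 (SE 0.15, adjusted p = 0.0354). Racgap1, the other subunit of centralspindlin, was called with a ratio of 0.490 and an adjusted p of 0.0411, so the paired subunits had log2 differences of -1.57 and -1.01. Kif4, a chromokinesin that sets the length of the central spindle, was at 9.11, 17.7 and 21.4 FPKM in KO replicates 1, 2 and 3, against 7.7, 15.8 and 19.1 FPKM in WT replicates 1, 2 and 3. It had a ratio of 0.455 and a log2 difference of -1.05 (SE 0.13, adjusted p = 0.0411).

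Kif20a, which carries the passenger complex to the midzone, was called with a log2 difference of -1.18 (SE 0.09, adjusted p = 0.0311). Anln, the actin-binding scaffold anillin of the contractile ring, had the smallest difference of this group, at 6.43, 12 and 13.9 FPKM in KO replicates 1, 2 and 3, against 6.09, 12.3 and 11.8 FPKM in WT replicates 1, 2 and 3. Both replicate 1 libraries were still near 0.5 of the others, at 0.50, with a log2 difference of -0.89 (SE 0.10, adjusted p = 0.0387). Prc1, which bundles midzone microtubules, and Ect2, the activator of RhoA at the division plane, were not called, with ratios of 0.462 and 0.471 and adjusted p-values of 0.096 and 0.0715.

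The 7 genes of chromosome structure and surface had a median of -1.04, all 7 had both replicate 1 libraries below the other 4, and 3 were called. Mki67 (chr7:135689784-135716361, minus strand), which encodes the proliferation marker Ki-67 that coats mitotic chromosomes, was at 14.2, 71.3 and 73.7 FPKM in KO replicates 1, 2 and 3, against 12.1, 67.4 and 68.4 FPKM in WT replicates 1, 2 and 3. The other 4 libraries lay within a narrow band, replicate 1 held 0.187 of their mean, and the difference was -2.33 (SE 0.08, adjusted p = 0.00655), which ranked 42 among all genes tested by size of decrease and 2 by p. Top2a (chr11:98992943-99024189, minus strand), the topoisomerase that untangles sister chromosomes and the member with the highest mean level, was at 68.9, 119 and 147 FPKM in KO replicates 1, 2 and 3, against 63.9, 129.9 and 158 FPKM in WT replicates 1, 2 and 3. Replicate 1 was the lowest library of both genotypes at 0.479 of the others, with a log2 difference of -1.04 (SE 0.15, adjusted p = 0.0488).

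Ncapd2, a non-SMC subunit of condensin I, was called with a log2 difference of -0.86 (SE 0.11, adjusted p = 0.0415), while the other 3 condensin genes among the members were not. The SMC subunits that all condensins share had ratios of 0.404 (Smc4, adjusted p = 0.0602 with limma) and 0.599 (Smc2, adjusted p = 0.0858). Smc2 was at 17.7, 27.3 and 26.7 FPKM in KO replicates 1, 2 and 3, against 18.4, 28.3 and 38.2 FPKM in WT replicates 1, 2 and 3. Its replicate 1 libraries were the lowest by a smaller margin than those of Smc4. Ncapg, another condensin I subunit, had a ratio of 0.362 and a large SE, with a log2 difference of -1.31 (SE 0.31, adjusted p = 0.0999). Cdca2, which brings phosphatase 1 to anaphase chromosomes, had the smallest difference of the group, at 8.08, 11.1 and 13.8 FPKM in KO replicates 1, 2 and 3, against 6.69, 8.99 and 9.79 FPKM in WT replicates 1, 2 and 3. Its replicate 1 libraries were the lowest of each genotype at 0.676 of the others, with a log2 difference of -0.50 (SE 0.12, adjusted p = 0.103). With transcripts under 300 nt kept, WT replicate 1 was at 9.07 FPKM and no longer below WT replicate 2, at 8.99 FPKM.

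The spread between replicate 1 and the others was shared by many genes and led by Mki67. Of the sum of squares of log2(FPKM + 1) over all 54 members, 79.1% lay between replicate 1 and the others, 7.56% between the genotypes, 7.43% between replicates 3 and 2 and 5.93% in the rest. Cdc25b, listed at 0 in KO replicates 1 and 2, made up 84.8% of the genotype part, and without it the shares were 91.1%, 1.36%, 4.52% and 3.01%, an alternative chosen after seeing the data. Mki67 carried 7.30% of the replicate 1 part, against 1.85% for an equal share of 54, followed by Cenpe with 5.11%, Cenpf with 3.95%, Aspm with 3.69%, Cdc20 with 3.65% and Hmmr with 3.63%. It took 15 members to reach 50% of it. The share of Aspm depended on the length minimum, as its level in WT replicate 1 was 2.76 FPKM, against 8.92 FPKM with transcripts under 300 nt kept. At the other end Pttg1 carried 0.0643%, Birc5 0.317%, Aurkb 0.330%, Cdca2 0.330% and Nek2 0.371%. These shares are for the average over all exonic bases. In the same order, the log2 differences of these genes over assembled bases only were -0.21, -0.14, -0.76, -0.40 and -0.82. Those of Aurkb and Nek2 were -0.50 and -0.53 over all exonic bases, so their small shares depended on the bases averaged.

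Within a member, the replicate 1 contrast took a median of 92.5% of the variance, against 33.3% over all genes tested, and more than 80% in 45 members, against 13.0% of all genes tested. It took 99.5% in Mki67, 98.9% in Kif20a, 98.8% in Ckap2l and 98.1% in Cenpe. The lowest shares were 14.0% in Cdc25b, where the genotype took 41.1%, 43.8% in Spc25, where replicates 3 against 2 took 44.5%, and 54.4% in Aurkb, where the genotype took 39.0%. Across members, the difference had no clear relation to mean level (Pearson r -0.04, Spearman rho 0.09). Its relation to exonic length had a Pearson r of -0.36 and a Spearman rho of -0.13, and over all genes tested the Spearman rho was -0.24. The Pearson r over all genes tested, -0.17, was taken with log2 of the length. It is therefore not comparable with the Pearson r of the members.

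Because a base average falls where part of a gene is not assembled, the difference was also followed along the genes. In 5 equal parts of the exonic bases from the 5′ to the 3′ end, the median log2 difference of the members between replicate 1 and the others was -1.18, -1.04, -1.04, -1.0 and -0.94, while over all genes tested it lay between -0.03 and 0.003. The median decrease was therefore present over the whole length and was somewhat greater at the 5′ end, though not in every member (Mad2l1). Assembled transcripts covered a median of 93.4% of a member in KO replicate 1 and of 95% and 96.0% in KO replicates 2 and 3. They covered 90.4% in WT replicate 1 and 96.0% and 95.5% in WT replicates 2 and 3. The 30 members covered over 80% or more in all 6 libraries had a median difference of -1.15, with values between -2.33 and -0.75. With assembled bases only, all members together had a median of -1.10.

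**Figure D4:**
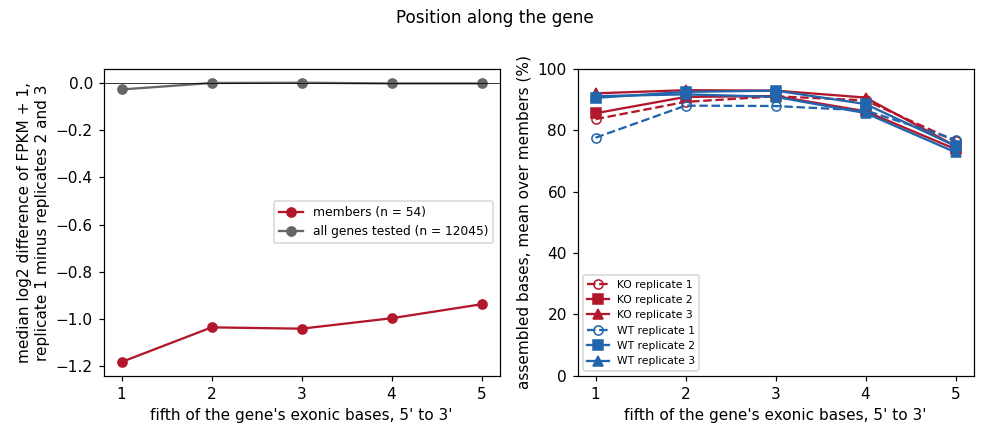
Median log2 difference between replicate 1 and replicates 2 and 3 in each of 5 equal parts of the exonic bases for the 54 members and for all 12045 genes tested (left), and the mean percent of the members' bases assembled in each library (right). Members lie between -1.18 and -0.94 along the whole gene while all genes lie near 0, and WT replicate 1 has the lowest assembled share in the part at the 5′ end.

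Mki67 shows this in single transcripts. In KO replicate 1 it was assembled as 1 transcript of 14 exons and 10014 nt at 14.3 FPKM. A transcript of 14 exons was also assembled at 71.3 and 76.0 FPKM in KO replicates 2 and 3, and at 69.6 and 70.4 FPKM in WT replicates 2 and 3. In WT replicate 1 the gene was in 4 pieces, the longest of 7533 nt at 13.6 FPKM. Both replicate 1 values were thus close to each other whether the gene was in 1 piece or 4. Cdk1 was less well assembled, over 47.0% and 59.5% of its bases in KO and WT replicate 1 and over 22% to 23.6% in the other 4 libraries.

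No member differed between KO and WT libraries beyond the spread between replicates in the limma fit. Of the 54 members, 32 had a higher and 22 a lower mean log2 level in KO than in WT, with a median log2 difference of 0.02, against -0.01 over all genes tested. The tally turned to 13 higher and 41 lower (median -0.08) with array weights, and to 20 higher and 34 lower (median -0.12) with FPKM summed over transcripts. None was called, where 0% of all genes tested were called higher and 0.0083% lower (1 gene), and none reached an unadjusted p under 0.05 with limma, which 1.62% of all genes tested did. No member had KO and WT libraries that did not overlap, against 2.03% of all genes tested with every KO library above and 3.03% with every KO library below every WT library. The median SE of a member was 0.44 in this fit, which includes the spread between replicate 1 and the others, and 0.10 in the fit with the replicate block.

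The limma adjusted p of every member was 0.9999. The member with the smallest unadjusted p was Cdc25b, with a log2 difference of -2.32 (SE 1.13), which rests on the 2 KO libraries listed at 0. Next were Aurkb, with 41 ± 10.2 FPKM in KO and 30.4 ± 4.18 FPKM in WT (SD, n = 3 each) and a log2 difference of 0.40 (SE 0.22), and Cdca2, with 11 ± 2.84 FPKM in KO and 8.49 ± 1.61 FPKM in WT (SD, n = 3 each) and a log2 difference of 0.32 (SE 0.22). Nek2 averaged 8.95 ± 2.12 FPKM in KO and 6.91 ± 1.62 FPKM in WT (SD, n = 3 each), with a log2 difference of 0.33 (SE 0.23). Ube2c averaged 69.7 ± 22.5 FPKM in KO and 54.7 ± 24.8 FPKM in WT (SD, n = 3 each), with a log2 difference of 0.39 (SE 0.42). For these last 4 genes the KO libraries were higher at each replicate number in the average over all exonic bases, but KO replicate 1 stayed within the range of the WT libraries. Over assembled bases only, Ube2c was lower in KO at number 2, at 83.6 FPKM against 100 FPKM in WT. It stayed higher in KO at numbers 1 and 3. Aurkb was assembled over 90.5%, 90.6% and 91.2% of its bases in KO replicates 1, 2 and 3, and over 94.4%, 63.4% and 65.8% in WT replicates 1, 2 and 3. Over assembled bases only it was at 32.5, 49.2 and 53.6 FPKM in KO replicates 1, 2 and 3, and at 27.1, 50.9 and 50.6 FPKM in WT replicates 1, 2 and 3, a log2 difference of 0.0954. Nek2, assembled over 35.9% of its bases in WT replicate 3, had -0.11 over assembled bases, and Cdca2 had 0.36. With transcripts under 300 nt kept, Cdca2 averaged 8.08 FPKM over all exonic bases in KO replicate 1. The value in WT replicate 1 was then 9.07 FPKM, so its KO library was not higher at number 1. Mad2l1 had a log2 difference of -0.17 (SE 0.24), Smc2 a log2 difference of -0.20 (SE 0.30) and Kif4 a log2 difference of 0.18 (SE 0.42). These completed the 8 smallest p-values, and 1 library decided the sign of each of these 3. It turned to 0.000377 for Mad2l1 without KO replicate 1, to 0.0374 for Smc2 without WT replicate 3, and to -0.06 and -0.18 for Kif4 without KO replicate 3 and without WT replicate 1.

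For the named proliferation markers, the genotypes lay within each other's spread. Mki67 averaged 53.1 ± 33.7 FPKM in KO and 49.3 ± 32.2 FPKM in WT (SD, n = 3 each), with a log2 difference of 0.14 (SE 0.90). Top2a averaged 112 ± 39.5 FPKM in KO and 117 ± 48.4 FPKM in WT (SD, n = 3 each), with a log2 difference of -0.04 (SE 0.42). Cdk1 averaged 30.7 ± 9.74 FPKM in KO and 31.7 ± 8.27 FPKM in WT (SD, n = 3 each), with a log2 difference of -0.06 (SE 0.29). Ccnb1 averaged 47.5 ± 23.7 FPKM in KO and 47.8 ± 24.7 FPKM in WT (SD, n = 3 each), with a log2 difference of 0.02 (SE 0.53). The microglia and macrophage markers moved with the genotype, at 282 to 449 FPKM in KO and 203 to 260 FPKM in WT as a sum, with 12 of the 12 tested higher in KO, 5 at an unadjusted p under 0.05 and none called, and their part in the values of the members was not tested.

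The direction of the KO against WT median followed the library left out. It was 0.37 without KO replicate 1 and -0.41 without WT replicate 1, since either omission leaves 1 low library in the other genotype only. Without both replicate 1 libraries it was -0.06, with 21 members higher and 33 lower in KO, none called, while 18 genes of all tested (0.149%) were called higher and 11 (0.0913%) lower. Because KO and WT libraries with the same number moved together, the numbers were also used as a replicate block. No member was called with the block either, and 3 reached an unadjusted p under 0.05, against 4.23% of all genes tested. These were Aurkb (log2 difference 0.40, SE 0.10), Nek2 (0.33, SE 0.08) and Cdca2 (0.32, SE 0.08), each higher in KO at all 3 numbers in the average over all exonic bases, with an adjusted p of 0.809. Over assembled bases, without the block, the differences of Aurkb and Nek2 were 0.0954 and -0.11. For Cdca2, KO was not higher at number 1 with transcripts under 300 nt kept, at 8.08 FPKM in KO and 9.07 FPKM in WT.

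Within replicate numbers, the KO library was above the WT library in 40 of 54 members at number 1, in 14 at number 2 and in 30 at number 3, against 42.5%, 49.5% and 53.7% of all genes tested. The direction thus changed with the number. The KO library was higher at all 3 numbers in 7 members (Mki67, Kif4, Ube2c, Nusap1, Nek2, Cdca2 and Aurkb), against 13.6% of all genes tested, and lower at all 3 in 6 (Kif15, Prc1, Bub1, Nuf2, Smc2 and Mad2l1), against 15.8% of all genes tested. Counted over assembled bases only, the order held for Mki67, Nusap1, Cdca2, Bub1, Nuf2, Smc2 and Mad2l1 and not for the others named. With transcripts under 300 nt kept, Cdca2 was lower in KO (8.08 FPKM) than in WT (9.07 FPKM) at number 1. Over assembled bases only, Kif4 was at 18.1 and 22 FPKM in KO replicates 2 and 3, against 19 and 23.1 FPKM in WT replicates 2 and 3. The last of 5 equal parts of its exonic bases was assembled over 98.1% and 91.6% in these KO libraries. In these WT libraries it was assembled over 16% and 13.2%. At number 1 it was assembled over 93.4% in KO and 91.7% in WT. Kif4 ends at chrX:100727214, and the first exon of Gdpd2 begins at chrX:100729942. Whether this position bears on the values of Kif4 was not tested. With 1 library for each genotype and number, the differences within numbers have no replicate check.

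A smaller difference lay between replicates 3 and 2. Replicate 3 was above replicate 2 in both genotypes in 34 members (63.0%), against 31.9% of all genes tested, and below it in both in 6 members. The median log2 difference was 0.25 in KO and 0.13 in WT, against 0.01 and -0.01 over all genes tested. Examples chosen after their values were seen are Ccnb1, Aspm, Prc1 and Mki67. Ccnb1 had a step of 0.69 in KO and 0.50 in WT. Aspm had 0.57 in KO and 0.39 in WT, and Prc1 0.68 in KO and 0.46 in WT. Mki67 had nearly none, at 0.05 in KO and 0.02 in WT.

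Other genes of the cell cycle were compared by list. Of 95 other mitosis genes tested, 85 were lower in replicate 1 than in the others and 19 were called lower, with a median of -0.67. The smallest p-values were those of Spag5, a spindle-associated protein (log2 difference -1.48, SE 0.11, limma adjusted p = 0.0311), and Troap, a microtubule-associated protein of the spindle (log2 difference -1.57, SE 0.13, limma adjusted p = 0.0311). The APC/C subunits, which are made through most of the cycle, had 11 of 17 lower, a median of -0.11 and none called. Counted with them were the activator Fzr1 and the ubiquitin-conjugating enzymes Ube2s and Ube2d1. The smallest p-values there were those of Fzr1, the G1 activator of the complex (log2 difference -0.54, SE 0.10, limma adjusted p = 0.0705), and Cdc23 (log2 difference -0.51, SE 0.11, limma adjusted p = 0.089).

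The regulators of mitotic gene expression, such as DREAM and E2F members, had 15 of 26 lower, a median of -0.09 and none called. That list also held Wee1, Pkmyt1 and Cdc25a, which act on CDK activity and not on gene expression. Mybl2, which encodes B-MYB, had the smallest p of them (log2 difference -0.51, SE 0.08, limma adjusted p = 0.0517), and Pkmyt1, an inhibitory kinase of CDK1, the next (log2 difference -0.68, SE 0.12, limma adjusted p = 0.062). Of 42 S phase and replication genes, 23 were lower and 19 higher, with a median of -0.06, and 1 was called, in the other direction: Dut, the dUTPase that keeps uracil out of DNA, was higher in replicate 1 (log2 difference 1.09, SE 0.15, limma adjusted p = 0.0459), where 0.349% of all genes tested were called higher. Mcm10, a replication initiation factor, had the next smallest p (log2 difference -0.61, SE 0.11, limma adjusted p = 0.0652). The lists were not tested against each other. Between KO and WT, none of these 4 lists had a called gene, and their medians were -0.01, 0.01, -0.03 and -0.01.

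**Figure D5:**
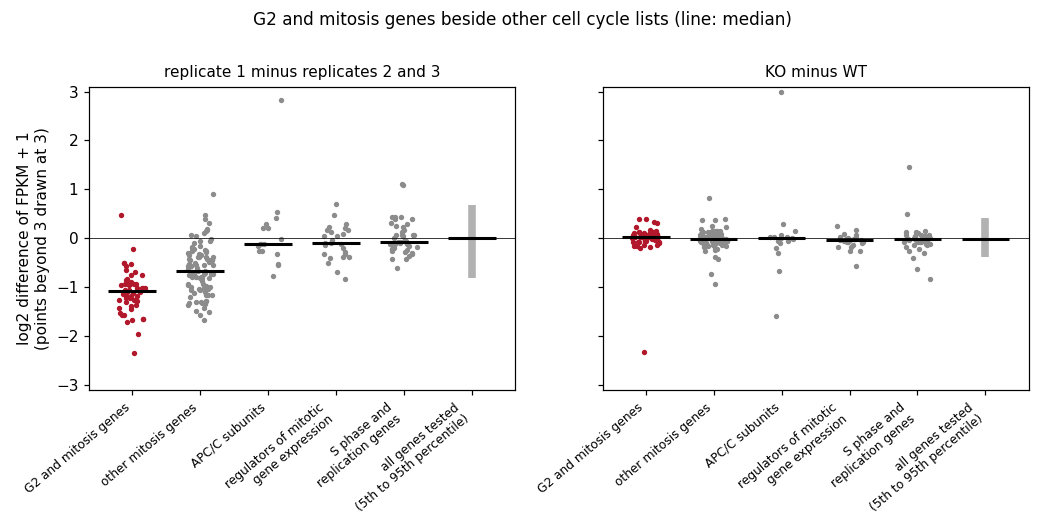
Log2 difference of each gene for replicate 1 minus replicates 2 and 3 (left) and KO minus WT (right), for the 54 members and 4 other cell cycle lists, with the median as a line and the 5th to 95th percentile of all genes tested as a grey bar. In replicate 1 the members (median -1.07) and the other mitosis genes (median -0.67) lie below 0 while the other lists lie around it, and between KO and WT every median is within 0.03 of 0.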

How the data were processed

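Per the submitters' processing notes, reads were handled with FastQC and TopHat2 2.1.1 and then with Cufflinks 2.2.1, Cuffdiff 2.2.1 also being named, on mm10. Each library has 1 deposited assembly, in which a transcript has a score, a coverage and an FPKM (per the file headers and attributes) and no gene name. Read counts were not used, so only relative depth is known, as coverage per FPKM (0.759 to 1 of the deepest library). Strandedness was not given in the sources used here.

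Transcripts of 300 nt or more, on the strand of a gene or without one, were matched by position to genes of GENCODE M21 (basic set). Their FPKM was summed at each exonic base that no other gene shares and averaged over these bases (200 or more). Genes averaging at least 1 FPKM were tested on log2(FPKM + 1) in R 4.3.3 using limma 3.58.1 (trended empirical Bayes, two-sided, Benjamini-Hochberg at 0.05 over 12045 genes), for KO against WT, and for replicate 1 against replicates 2 and 3 with genotype as a covariate. Differences on this scale understate changes of low genes, and a 0 means that no transcript of at least 300 nt was assembled there. The code was tested on simulated data.

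The members, roles and lists were chosen with earlier results of these data known, and so was the division by replicate 1, whose p-values are therefore a description. Values in every library are given for Mki67, Top2a, Cdk1 and Ccnb1, for the largest and smallest replicate 1 difference of each role, for the 8 smallest p-values of KO against WT, and for any member at 0. Of each other cell cycle list the 2 smallest p-values are named.

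Deviations from the genotype mean correlated between KO and WT libraries with the same number, with r over genes of 0.369 (number 1), 0.197 (number 2) and 0.293 (number 3), while unlike numbers gave -0.277 to 0.0234. The numbers, from the titles, were therefore taken to pair the samples in the replicate block, which was an alternative. The main KO against WT fit had the genotype only and did not pair the samples. Alternatives covered the pseudocount, the filter, scaling, the gene value, the length minimum, array weights, the block and left-out libraries. Promoter sequences are from RefSeq (GRCm38.p6). One erythroid marker is not reported here.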

Additional observations from a re-analysis of the deposited data

How the results depend on the processing

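The lower level of the members in replicate 1 kept its direction in every alternative: 53 of 54 members were lower in each setting that was run, except with FPKM summed over transcripts (42). The number called did not keep. It was 30, against 0 with summed FPKM, 9 over assembled bases only, 1 without a minimum transcript length and 1 to 3 with a library left out. The median difference was -1.07, against -0.93 with a pseudocount of 5, -0.72 with summed FPKM and -1.15 to -0.94 with a library left out. All members but Cdc25b were assembled in every library, and no counting error is given because read counts were not used.

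With summed FPKM, which also moved the median of all genes to 0.54, the replicate 1 difference changed sign for Cenpe (0.0930), Cenpf (0.48), Aspm (1.46), Kif2c (0.42), Bub1b (0.0766), Smc4 (0.14), Ect2 (0.31), Nusap1 (0.19), Smc2 (0.41), Mad2l1 (1.64), Nek2 (0.33), Cdca2 (1.56) and Birc5 (-0.18). Over assembled bases only it did for Mad2l1 (0.0803) and Birc5 (-0.14). The sum counts each piece of a gene, and WT replicate 1 held the most transcripts. For Cdca2 no transcript was assigned in WT replicate 3, so its sum there was 0, although 95.9% of its bases were assembled at 9.79 FPKM.

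Over all genes, replicate 1 had 42 called higher and 207 lower. With summed FPKM both counts were 0, over assembled bases 16 and 48, without a length minimum 4 and 5, with array weights 125 and 432, without the genotype term 161 and 511, and with a library left out 4 to 26 and 2 to 32. Quantile normalization gave 135 lower.

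Between KO and WT, 0 genes were called higher and 1 lower. The lower count was 0 with a pseudocount of 0.1 or 5, with a mean of 5 FPKM or more, with summed FPKM and with the replicate block. With every gene type, added after seeing the data, the counts were 1 and 2, without both replicate 1 libraries 18 and 11, and with a library left out 0 to 11 and 1 to 6. No member was called in any of these. The difference changed sign with summed FPKM for Nek2 (-0.13), Mad2l1 (0.15) and Kif4 (-0.25), over assembled bases for Nek2 (-0.11), without KO replicate 1 for Mad2l1, without WT replicate 3 for Smc2, and without KO replicate 3 or WT replicate 1 for Kif4. With a library left out these 3 ranged from -0.37 to 0.000377, from -0.47 to 0.0374 and from -0.18 to 0.52. The cause of these changes was not tested. The replicate block left the median of the members at 0.02 and changed no call among them.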
